A study of Mus musculus with 24 samples.

Results

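A set of 8 transcription factors that establish and keep the identity of the intestinal epithelium and its absorptive cells was followed: Cdx1, Cdx2, Hnf4a, Hnf4g, Gata4, Gata6, Maf and Prdm1. They were listed by name, with earlier results of these data known, and matched to the files through their mouse Entrez gene identifiers. They make up 8 of the 36528 genes in the files, and all 8 passed the filter on low counts. The samples were organoids, self-organising cultures of epithelium, grown from mouse small intestine. RNA with poly(A) tails was sequenced from 24 libraries in 6 groups of 4, made up of the vehicle DMSO, dFz7-21 and Fz7-21S at 2 times of treatment, 6 h and 24 h. According to the series, the peptide dFz7-21 blocks Frizzled 7, which is a receptor for Wnt ligands, and the study asks what this does to gene expression. Of Fz7-21S the labels give the name alone, and they give no dose, medium, strain, sex or age. All 6 groups share the organoid culture, and the 4 DMSO libraries of a time point serve as control for both peptides. Nothing in the labels says whether replicates came from separate cultures or animals, so the p-values below rest on a spread between samples that may be technical alone.

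CDX1 and CDX2 are homeobox proteins that specify the intestine and keep its cells from taking on foregut fates. HNF4α and HNF4γ are paralogous nuclear receptors that act together on enterocyte genes for lipid handling and the brush border. GATA4 is a zinc finger factor of the proximal small intestine, and GATA6 a relative found along the whole intestine. c-MAF is a basic leucine zipper factor of villus enterocytes, and PRDM1, also called BLIMP1, is a repressor that holds the suckling-type epithelium in place before weaning.

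The libraries held 20.4 to 33.1 M counts of uniquely aligned reads (M, 1e6; median 25.1 M). All 8 epithelial markers were between 773 and 5305 CPM (counts scaled to a library of 1e6 with TMM factors) in every library. Of 10 stomach and foregut markers, 8 stayed below 1 CPM in every library and none exceeded 1.19 CPM. Of 13 immune markers, 10 stayed below 1 CPM in every library, with Cd4 at 0 in all 24. The others were Sdc1, which epithelium also expresses (246 to 509 CPM), Itgam (1.81 to 9.40 CPM) and Cd68 (0.338 to 2.67 CPM). Of 8 endothelial markers, 5 stayed below 1 CPM, with Cdh5 and Emcn at 0 in all 24, while Lyve1 ran from 2.86 to 11.3 CPM, Prox1 from 2.54 to 6.19 CPM and Flt4 up to 3.08 CPM. After 24 h of dFz7-21, Itgam (0.79, adjusted p 0.00413) and Lyve1 (0.54, adjusted p 0.0112) were higher than in DMSO and Prox1 (-0.88, adjusted p 0.00066) was lower, and their part in the results was not tested. Transcripts of mesenchyme were high in 3 libraries, DMSO at 6 h replicates 1 and 2 and dFz7-21 at 24 h replicate 3: the 14 markers summed to between 155.5 and 992.7 CPM there, against 9.53 to 18.2 CPM in the other 21, although Dcn and Lum were at 0 in all 24. Fz7-21S at 24 h replicate 4 also stood apart, with 31.4% of tested genes more than 1.5-fold from the median of the other replicates, against 13.5% in DMSO at 24 h replicate 2, 11.4% in dFz7-21 at 24 h replicate 3 and 5.20% to 8.07% in the remaining libraries. For some of the results that rest on these libraries, values without them are also given below, a choice made after the data were seen. A value given alone may still rest on them.

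Promoter sequence is shown for Cdx2 and Hnf4a, whose transcripts were both higher with dFz7-21 at 6 h and at 24 h. Each line holds the 250 bases before a RefSeq transcription start (GRCm38.p6), written 5′ to 3′ on the strand of the gene, with motif matches in capitals. Hnf4a has an upstream and a downstream promoter, and the gene counts do not separate their transcripts. The Cdx2 window is chr5:147307250-147307499 on the minus strand, and the Hnf4a windows are chr2:163506607-163506856 and chr2:163546905-163547154 on the plus strand.
Cdx2: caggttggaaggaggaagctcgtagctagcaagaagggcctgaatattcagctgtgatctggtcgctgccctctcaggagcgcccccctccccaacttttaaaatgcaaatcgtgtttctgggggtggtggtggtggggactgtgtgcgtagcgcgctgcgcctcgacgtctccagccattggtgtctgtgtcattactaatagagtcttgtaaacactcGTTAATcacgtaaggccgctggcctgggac
Hnf4a, upstream promoter: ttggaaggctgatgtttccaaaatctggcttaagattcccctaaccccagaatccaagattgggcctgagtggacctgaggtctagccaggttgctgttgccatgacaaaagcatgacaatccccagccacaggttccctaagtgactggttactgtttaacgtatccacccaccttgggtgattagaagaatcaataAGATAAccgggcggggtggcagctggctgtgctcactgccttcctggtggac
Hnf4a, downstream promoter: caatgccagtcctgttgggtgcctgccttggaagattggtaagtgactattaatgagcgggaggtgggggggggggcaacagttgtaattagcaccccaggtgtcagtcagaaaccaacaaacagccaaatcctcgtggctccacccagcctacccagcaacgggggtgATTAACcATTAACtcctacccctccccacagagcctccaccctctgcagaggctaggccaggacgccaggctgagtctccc

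Both strands were searched for 7 motifs, among them CTTTGA for TCF/LEF factors, AGATAA for GATA factors and GTTAAT for part of an HNF1 site. The others were TTTAT for CDX, AAAGTCCA for HNF4, GAAAGT for PRDM1 and GGCGCC for SMADs. The Cdx2 window (55.2% G and C) held GTTAAT at 30 to 25 bases before the start. In the upstream Hnf4a window (51.2% G and C), AGATAA lay 52 to 47 bases before the start. This start lies within the gene model, as the window's last base, 163506856, is past the model's first base at 163506811. The downstream Hnf4a window (57.6% G and C) held GTTAAT on the opposite strand, printed as ATTAAC, at 81 to 76 and at 74 to 69 bases before the start, the copies not overlapping. Over 32841 RefSeq promoter windows of this length, GTTAAT occurred in 6.43%, AGATAA in 9.99%, CTTTGA in 13.8%, TTTAT in 37.3%, GAAAGT in 12.3%, GGCGCC in 9.59% and AAAGTCCA in 1.01%. The letters CTTTGA were in none of the 3 windows, nor in that of Prdm1, which held no match to any of the 7. No window of the other members, Cdx1 among them, was searched. These are matches of letters, not sites shown to be bound.

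Of the 8 factors, 6 were higher after 24 h of dFz7-21 than in DMSO, and none was lower. Maf and Hnf4g differed most, 1.90-fold and 1.73-fold, while Cdx1, Cdx2, Hnf4a and Gata4 differed by 1.17-fold to 1.23-fold. Gata6 and Prdm1 did not pass the test. Calls required an adjusted p below 0.05 in edgeR's quasi-likelihood test, with Benjamini-Hochberg adjustment over the 15429 genes tested, and that rule called 35.9% of all tested genes in this comparison, 18.2% higher and 17.7% lower. At 6 h, 3 of the 8 were higher (Cdx2, Hnf4a and Maf) and none lower, where 11.0% of all tested genes were called, 6.05% as higher. The median log2 fold change of the 8 was 0.28 at 24 h and 0.32 at 6 h, beside -0.01 and 0.01 over all tested genes. In bulk RNA such as this, more cells of a type and more RNA per cell cannot be told apart. Among the 8 epithelial markers, Cdh17 and Vil1 are themselves enterocyte genes. At 24 h the summed CPM of the 8 markers ran from 13420 to 14640 with dFz7-21, from 10960 to 12040 in DMSO and from 11250 to 14600 with Fz7-21S. At 6 h it ran from 19600 to 20230 with dFz7-21, from 15940 to 18250 in DMSO and from 18110 to 18820 with Fz7-21S. The part of this sum in these results was not tested.

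**Figure D1:**
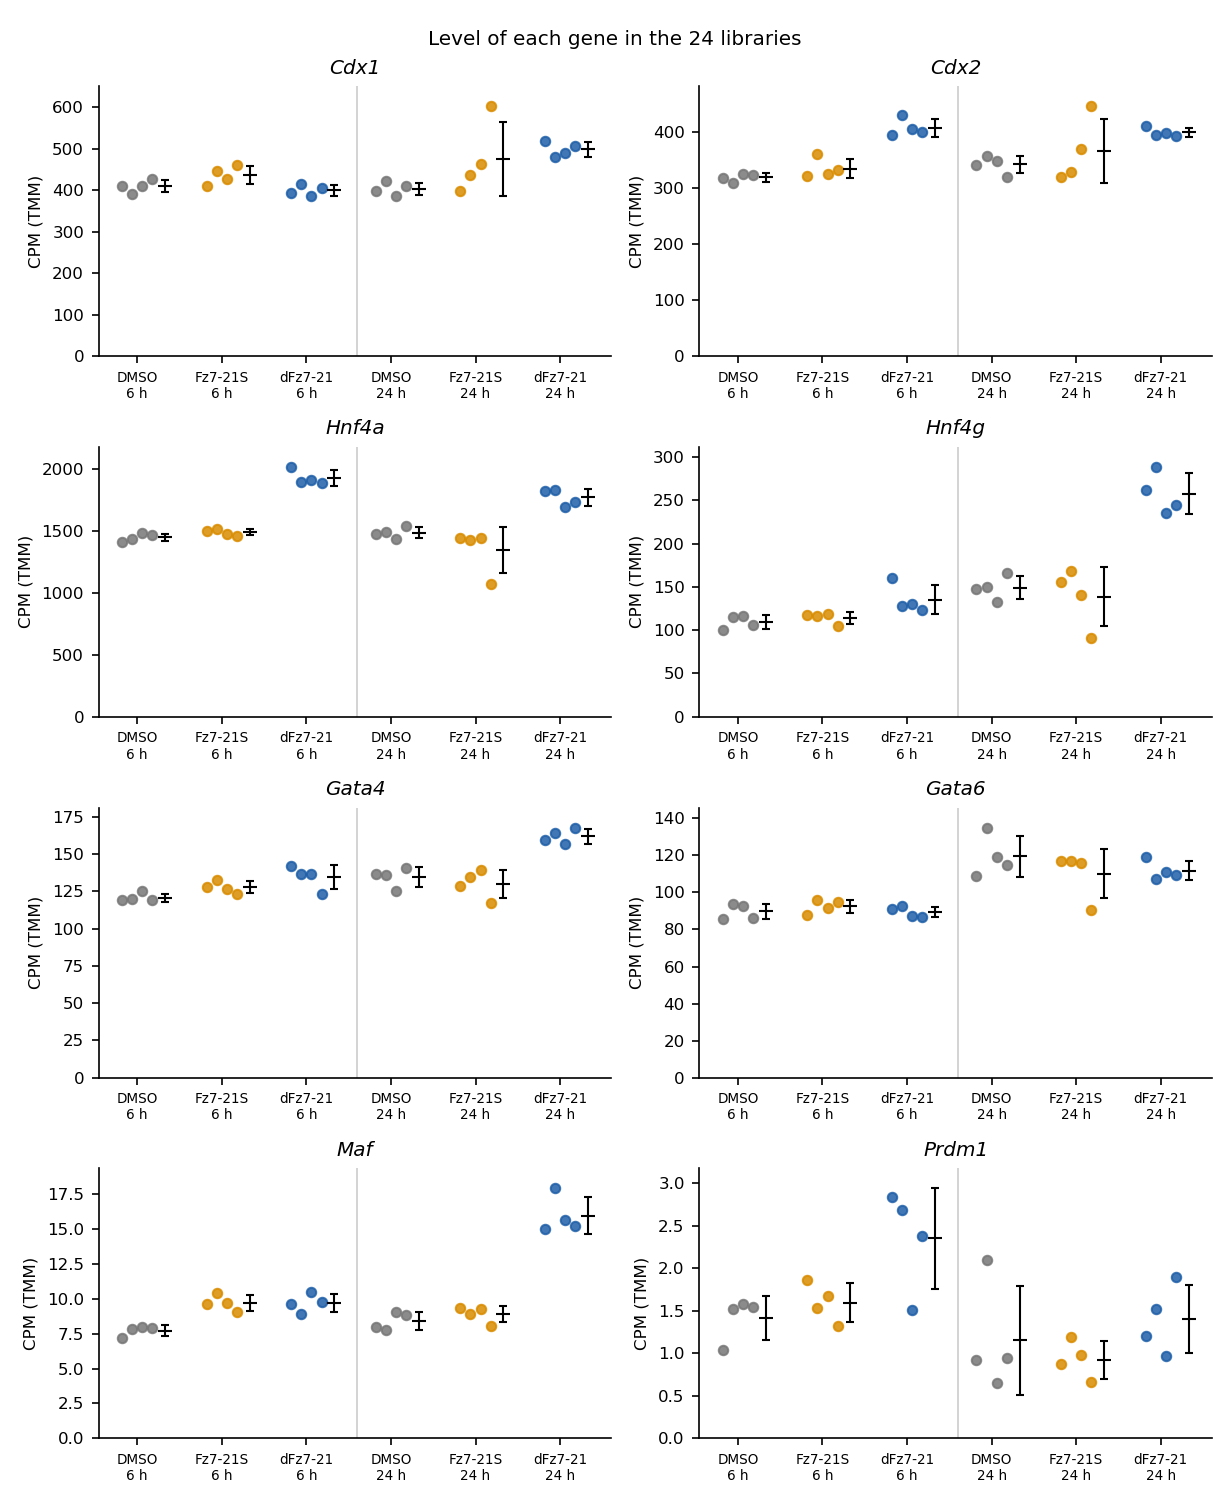
Level of each of the 8 genes in all 24 libraries, in TMM-scaled CPM from 0 on the vertical axis, by treatment and time on the horizontal axis. Points are libraries and the bars beside them show the mean and SD of the 4 replicates; the dFz7-21 libraries at 24 h lie above every other library for Hnf4g, Gata4 and Maf, and the 1 high Fz7-21S library at 24 h for Cdx1 and Cdx2 is replicate 4.

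Of the CDX pair, Cdx2 was called at 6 h and both were called at 24 h. Cdx2 (Entrez 12591, chromosome 5, 147300900 to 147307249, GRCm38.p6) was at 394, 430.1, 406 and 401 CPM with dFz7-21 at 6 h, in order of replicate. In DMSO at 6 h it was at 319, 308, 326 and 324 CPM, and with Fz7-21S at 322, 360.2, 324 and 333 CPM. All 4 dFz7-21 libraries therefore lay above all 8 controls of that time. The log2 fold change was 0.35 ± 0.07 (SE, adjusted p 0.00139) against DMSO and 0.28 ± 0.07 (adjusted p 0.0139) against Fz7-21S. Without the 3 libraries holding mesenchymal transcripts, the value against DMSO was 0.33 (adjusted p 0.0491). The call against Fz7-21S was lost without dFz7-21 replicate 2 (0.26, adjusted p 0.0581) or Fz7-21S replicate 3 (0.26, adjusted p 0.0541).

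At 24 h, Cdx2 stood at 412, 395, 399 and 392 CPM with dFz7-21, a range that overlapped its own range at 6 h. The DMSO libraries held 342, 357, 349 and 320.4 CPM, all lower. The Fz7-21S libraries held 319.8, 328, 370.1 and 447 CPM, of which replicate 4 was above every dFz7-21 library. Against DMSO the log2 fold change was 0.22 ± 0.07 (adjusted p 0.0165), and it was not called without DMSO replicate 4 (0.19, adjusted p 0.0615). Against Fz7-21S it was 0.13 (95% interval -0.02 to 0.27, adjusted p 0.181), and 0.26 (adjusted p 8.16e-05) without Fz7-21S replicate 4.

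Cdx1 (Entrez 12590, chromosome 18, 61018862 to 61036199), a direct Wnt target in development, showed no such early difference. At 6 h it was at 392, 414, 387 and 405 CPM with dFz7-21, at 409, 392, 409.7 and 427 CPM in DMSO, and at 411, 446, 428 and 460.5 CPM with Fz7-21S. The log2 fold change against DMSO was -0.04 (95% interval -0.20 to 0.13), which leaves out a rise of the size seen in Cdx2. At 24 h the dFz7-21 libraries had 518, 479.7, 489.9 and 506 CPM, all above the DMSO libraries at 399, 421, 387 and 409 CPM. This was a log2 fold change of 0.30 ± 0.08 (adjusted p 0.0041).

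Fz7-21S at 24 h gave Cdx1 levels of 399, 438, 462 and 603 CPM, the last from the library that stands apart. The difference of dFz7-21 from Fz7-21S was 0.07 (95% interval -0.09 to 0.23, adjusted p 0.537) with that library and 0.23 (adjusted p 0.000348) without it. The change of the dFz7-21 difference between the times, tested as an interaction, was 0.34 ± 0.11 for Cdx1 (adjusted p 0.0461), and -0.13 (95% interval -0.34 to 0.08) for Cdx2. The Cdx1 call is at the edge: it was lost without any of DMSO at 6 h replicates 1, 3 and 4, dFz7-21 at 6 h replicates 1, 2 and 3, or DMSO at 24 h replicates 2, 3 and 4 (adjusted p 0.053 to 0.091). It was also lost without the 3 libraries with mesenchymal transcripts (0.38, adjusted p 0.0841). Per kilobase, in the deposited RPKM, the ratio of Cdx1 to Cdx2 was 1.2 ± 0.03 (SD, n = 4) with dFz7-21 at 6 h, below its 1.57 ± 0.03 in DMSO and 1.60 ± 0.08 with Fz7-21S, with no overlap. At 24 h the ratios were 1.53 ± 0.04, 1.45 ± 0.09 and 1.59 ± 0.07, and the dFz7-21 libraries overlapped both controls.

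Of the HNF4 pair, Hnf4a was called at 6 h and both were called at 24 h. Hnf4a (Entrez 15378, chromosome 2, 163506811 to 163572907) was at 2016, 1892, 1909 and 1883 CPM with dFz7-21 at 6 h. DMSO libraries held 1411, 1430, 1480 and 1463 CPM, and Fz7-21S libraries 1495, 1517, 1476 and 1460 CPM. The lowest dFz7-21 library was thus well above the highest control. This came to a log2 fold change of 0.41 ± 0.07 (adjusted p 0.000114) against DMSO and 0.37 ± 0.07 (adjusted p 0.000643) against Fz7-21S. An antisense lncRNA gene, Hnf4aos, shares 34911 bp of its span with Hnf4a, and since the counting of strand is not given, reads of both genes cannot be told apart there. Hnf4aos itself had 0 to 33 counts per library, against 22781 to 51711 for Hnf4a.

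After 24 h of dFz7-21, Hnf4a was at 1821, 1829, 1691 and 1733 CPM, every library below those of 6 h. It was still above DMSO at 1477, 1487, 1433 and 1538 CPM and above Fz7-21S at 1445, 1429, 1439 and 1069 CPM. The log2 fold changes were 0.25 ± 0.07 (adjusted p 0.00387) against DMSO and 0.39 ± 0.07 (adjusted p 5.15e-05) against Fz7-21S, the latter 0.32 (adjusted p 8.05e-08) without Fz7-21S replicate 4. The interaction for Hnf4a was -0.16 (95% interval -0.35 to 0.03, adjusted p 0.296), so the difference at 24 h was not shown to be smaller than that at 6 h.

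Hnf4g (Entrez 30942, chromosome 3, 3508030 to 3659800) was the member with the largest difference after Maf at 24 h. It was at 262, 289, 235 and 245 CPM with dFz7-21, at 148, 149, 133 and 166 CPM in DMSO, and at 155, 168, 141 and 90.5 CPM with Fz7-21S. Every dFz7-21 library exceeded the highest control, and replicate 4 of Fz7-21S was the lowest of the 24. The gene differed from DMSO by a log2 fold change of 0.79 ± 0.13 (1.73-fold, adjusted p 2.53e-05). Against Fz7-21S it was 0.89 ± 0.13 (1.86-fold, adjusted p 7.0e-06), or 0.76 (adjusted p 1.94e-06) without Fz7-21S replicate 4.

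The early values of Hnf4g were less clear. With dFz7-21 at 6 h it was at 159.8, 128, 129.7 and 124 CPM, where replicate 1 was higher than the rest. DMSO libraries held 99.7, 115, 117 and 106 CPM, and Fz7-21S libraries 117, 116, 119 and 105 CPM. Although the groups did not overlap, the log2 fold changes of 0.30 (95% interval 0.04 to 0.56, adjusted p 0.134) against DMSO and 0.24 (-0.02 to 0.50, adjusted p 0.318) against Fz7-21S were not called. A fit of the DMSO and dFz7-21 libraries of 6 h alone called the former (0.29, adjusted p 0.0286). The interaction was 0.49 (95% interval 0.12 to 0.85, adjusted p 0.0739), not called, but called without dFz7-21 at 6 h replicate 1 (0.60, adjusted p 0.0335), without dFz7-21 at 24 h replicate 3 (0.56, adjusted p 0.0464), and in DESeq2 (0.50, adjusted p 0.0469). The RPKM ratio of Hnf4a to Hnf4g was 9.80 ± 0.60 in DMSO, 9.75 ± 1.39 with Fz7-21S and 6.75 ± 0.37 with dFz7-21 at 24 h (SD, n = 4), the last below both controls with no overlap. At 6 h it was 13.0 ± 0.82, 12.8 ± 0.64 and 14.1 ± 1.15, with overlap.

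**Figure D2:**
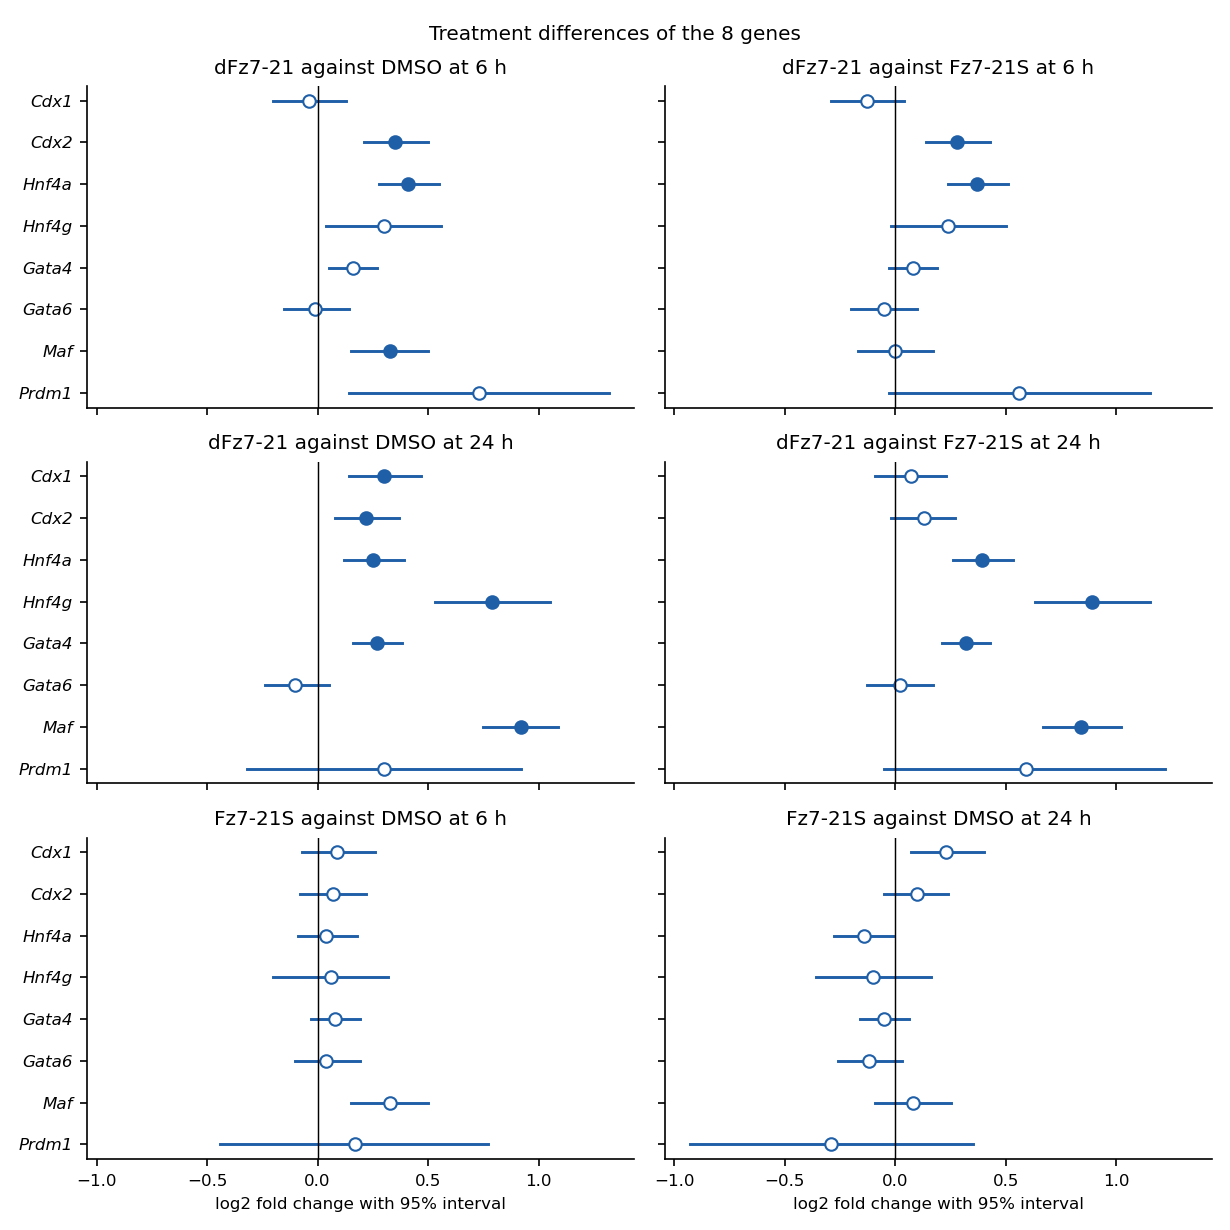
Log2 fold change (horizontal axis) of each of the 8 genes in the 6 treatment comparisons, with the 95% interval as a line; filled points were called at an adjusted p below 0.05 over all genes tested. Filled points lie to the right of 0 in the 4 comparisons of dFz7-21, and no point is filled for Fz7-21S against DMSO.

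Of the GATA factors, Gata4 was called at 24 h and Gata6 was not. Gata4 (Entrez 14463, chromosome 14, 63198914 to 63271712) was at 159, 164, 157 and 168 CPM with dFz7-21 at 24 h. DMSO libraries held 136, 136, 125 and 141 CPM, and Fz7-21S libraries 128, 135, 139.6 and 117 CPM. All 4 dFz7-21 libraries were above all 8 controls. The log2 fold change was 0.27 ± 0.05 (adjusted p 0.000353) against DMSO and 0.32 ± 0.05 (adjusted p 6.13e-05) against Fz7-21S, or 0.29 (adjusted p 1.04e-05) without Fz7-21S replicate 4.

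For Gata4 at 6 h, dFz7-21 gave 142, 137, 137 and 123 CPM, DMSO 119, 119.5, 125 and 119 CPM, and Fz7-21S 128, 133, 127 and 123 CPM. Replicate 4 of dFz7-21 lay within the range of both controls. Against DMSO the log2 fold change was 0.16 ± 0.05 (adjusted p 0.0589), not called, though called without that replicate (0.19, adjusted p 0.0387), in DESeq2 (0.16, adjusted p 0.0303) and in a fit of those groups alone (0.14, adjusted p 0.0171). Against Fz7-21S it was 0.08 (95% interval -0.03 to 0.19).

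Gata6 (Entrez 14465, chromosome 18, 11052510 to 11085636) did not differ detectably with treatment. At 24 h it ran from 108 to 119 CPM with dFz7-21, from 109 to 135 CPM in DMSO and from 90.4 to 117 CPM with Fz7-21S. With dFz7-21 the log2 fold change was -0.10 (95% interval -0.24 to 0.05) against DMSO and 0.02 (-0.13 to 0.17) against Fz7-21S, so a rise as large as that of Gata4, 0.27, lies outside both intervals. At 6 h the 12 libraries lay between 85.9 and 95.7 CPM, with -0.01 (95% interval -0.15 to 0.14) against DMSO. Gata6os, a lncRNA gene that shares 58 bp with Gata6, had 64 to 307 counts per library, against 1895 to 3663 for Gata6, and was not separated by strand. The RPKM ratio of Gata4 to Gata6 was 1.75 ± 0.11 with dFz7-21 at 24 h, against 1.37 ± 0.15 in DMSO and 1.43 ± 0.10 with Fz7-21S (SD, n = 4), with no overlap.

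Maf (Entrez 17132, chromosome 8, 115703253 to 115706894) differed most of the 8. With dFz7-21 at 24 h it was at 15.0, 17.9, 15.7 and 15.2 CPM, from 312 to 412 counts per library. DMSO libraries held 8.02, 7.76, 9.04 and 8.86 CPM, and Fz7-21S libraries 9.37, 8.88, 9.26 and 8.07 CPM. No other library of the 24 came above 10.5 CPM. On the log2 scale the fold change was 0.92 ± 0.08 (1.90-fold, adjusted p 5.45e-09) against DMSO and 0.84 ± 0.08 (1.79-fold, adjusted p 3.12e-08) against Fz7-21S. It was 0.93 (adjusted p 9.56e-08) against DMSO without the 3 libraries with mesenchymal transcripts.

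At 6 h Maf was at 9.63, 8.91, 10.5 and 9.79 CPM with dFz7-21 and at 7.19, 7.83, 8.01 and 7.91 CPM in DMSO. With Fz7-21S it was at 9.65, 10.4, 9.72 and 9.03 CPM, which overlapped dFz7-21 throughout. Both peptides thus lay above DMSO in every library, by a log2 fold change of 0.33 ± 0.08 each. For dFz7-21 this was called (adjusted p 0.0105), and for Fz7-21S, where nearly no gene was called, it was not (p 0.000707, adjusted p 0.999). The difference between the peptides was 0.00 (95% interval -0.17 to 0.17). The dFz7-21 call at 6 h was lost without dFz7-21 replicate 3 (0.28, adjusted p 0.0684), without the 3 libraries with mesenchymal transcripts, which include DMSO replicates 1 and 2 (0.29, adjusted p 0.182, or 0.27, adjusted p 0.129, when Fz7-21S at 24 h replicate 4 was also left out), and without a filter on low counts (0.31, adjusted p 0.0585). The interaction was 0.60 ± 0.12 (adjusted p 0.00107), so the difference from DMSO grew between 6 h and 24 h.

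Prdm1 (Entrez 12142, chromosome 10, 44437174 to 44528558) was the least abundant, with 14 to 70 counts per library. At 6 h it was at 2.83, 2.68, 1.51 and 2.37 CPM with dFz7-21, at 1.03, 1.52, 1.58 and 1.54 CPM in DMSO, and at 1.86, 1.53, 1.67 and 1.32 CPM with Fz7-21S. Replicates 1, 2 and 4 of dFz7-21 were above all controls and replicate 3 lay within the range of both. Its log2 fold change against DMSO was 0.73 ± 0.29 (95% interval 0.14 to 1.32, adjusted p 0.112) and not called, except in a fit of those groups alone (0.71, adjusted p 0.0227). Against Fz7-21S it was 0.56 (95% interval -0.03 to 1.15).

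At 24 h Prdm1 was at 1.21, 1.52, 0.972 and 1.90 CPM with dFz7-21, at 0.921, 2.09, 0.653 and 0.948 CPM in DMSO, and at 0.871, 1.19, 0.976 and 0.657 CPM with Fz7-21S. DMSO replicate 2 was the highest of the 12. The log2 fold change against DMSO was 0.30 (95% interval -0.32 to 0.92, adjusted p 0.467), and 0.73 (adjusted p 0.0441) without that library. At this depth neither a small rise nor a small fall of Prdm1 could be seen.

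Set against Fz7-21S in place of DMSO, 4 of the 8 were higher at 24 h (Hnf4a, Hnf4g, Gata4 and Maf) and none lower, beside 33.7% of all tested genes called, 16.5% higher and 17.2% lower. At 6 h, 2 were higher (Cdx2 and Hnf4a) and none lower, beside 7.04% of all, 3.21% higher and 3.83% lower. Without Fz7-21S replicate 4, Cdx1 and Cdx2 were called higher too at 24 h. The comparisons with DMSO and with Fz7-21S share their dFz7-21 libraries and are not independent of each other.

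Fz7-21S was not distinguished from DMSO in any of the 8 genes. edgeR's quasi-likelihood test called 0 of 8 at 24 h, where 0.259% of all tested genes were called, all higher, and 0 of 8 at 6 h, where 0.00648% were. At an unadjusted p below 0.05 there were 2 at 24 h, Cdx1 (0.23, 95% interval 0.07 to 0.40) and Hnf4a (-0.14, 95% interval -0.28 to -0.01), and 1 at 6 h, Maf. DESeq2 also called 0 at both times. Without Fz7-21S replicate 4 these 24 h values were 0.10 (adjusted p 0.668) for Cdx1 and -0.05 (adjusted p 0.819) for Hnf4a. Without Fz7-21S replicate 1, Cdx1 was called (0.30, adjusted p 0.0369). In the library that stands apart, Cdx1 and Cdx2 were the highest of their group and the other 6 factors the lowest.

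In DMSO alone, 3 of the 8 were higher at 24 h than at 6 h and none lower, where 27.3% of all tested genes were called higher and 24.9% lower. Gata6 was 119.5 ± 11.2 CPM at 24 h and 89.7 ± 4.17 CPM at 6 h (SD, n = 4), a log2 fold change of 0.41 ± 0.07 (adjusted p 3.24e-05). Hnf4g was 149 ± 13.4 and 109 ± 7.99 CPM, 0.44 ± 0.13 (adjusted p 0.00478). Gata4 was 134 ± 6.66 and 121 ± 2.84 CPM, 0.16 ± 0.05 (adjusted p 0.0168), a call lost without DMSO at 24 h replicate 1 (adjusted p 0.0600) or 4 (0.0575) and without the 3 libraries with mesenchymal transcripts (0.126). Cdx1, at -0.02 (95% interval -0.18 to 0.14), and Hnf4a, at 0.04 (-0.10 to 0.17), were flat within these intervals. Of the interactions, 2 of 8 were called, Cdx1 and Maf, both higher, where 7.37% of all tested genes were called higher and 5.78% lower.

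Levels of different genes were compared per kilobase. Over the 24 libraries the median RPKM was 322 for Hnf4a, 237 for Cdx1, 163 for Cdx2, 38.9 for Gata4, 29.2 for Hnf4g, 23.1 for Gata6, 2.49 for Maf and 0.182 for Prdm1. Hnf4a exceeded Cdx1 in 23 libraries of 24, the exception being Fz7-21S at 24 h replicate 4. Gata4 exceeded Hnf4g in 20 of 24, and the 4 where it did not were those of dFz7-21 at 24 h. Hnf4g exceeded Gata6 in 23, and the other neighbours in this order kept their place in all 24.

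**Figure D3:**
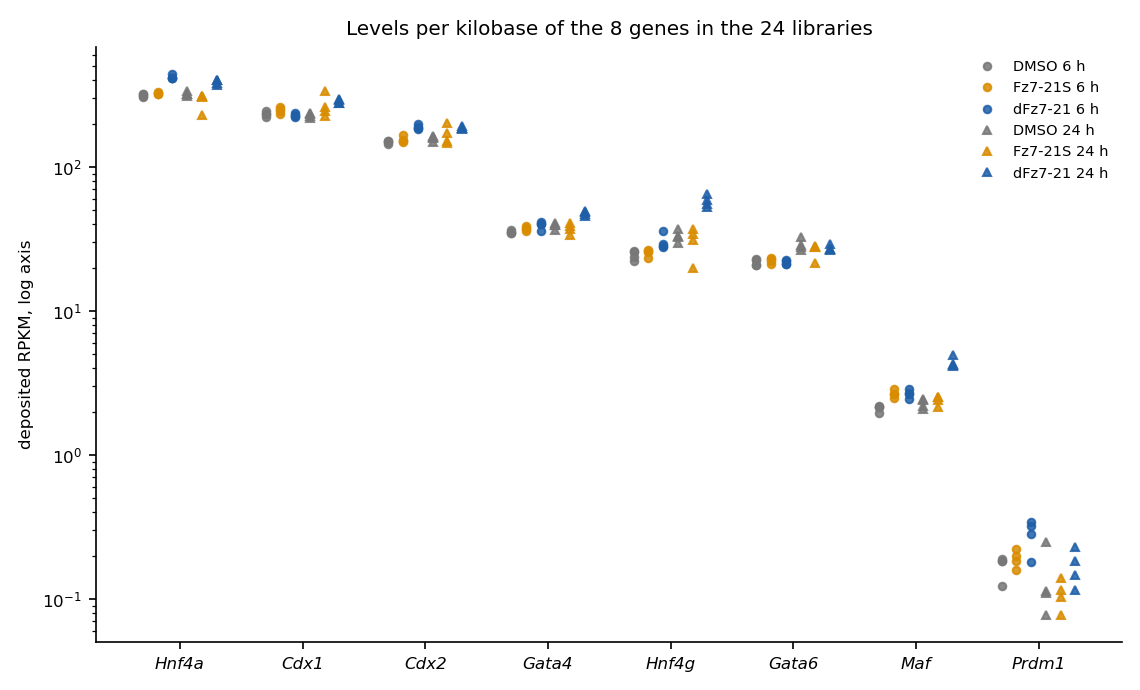
Deposited RPKM of the 8 genes in the 24 libraries, on a log axis, with circles for 6 h, triangles for 24 h and the treatment as colour. Hnf4a, Cdx1 and Cdx2 lie above 100 RPKM in every library and Prdm1 below 1, and the triangles of dFz7-21 for Hnf4g reach above the range of Gata4.

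The genes whose log2 CPM ran most closely with each factor over the 24 libraries were found by Pearson's r, as a description of libraries that share treatment, time and depth. For Hnf4g these were Sec23a (0.99), which codes for a coat protein of vesicles leaving the endoplasmic reticulum, Tbc1d24 (0.97) and Abcd3 (0.97), a peroxisomal transporter of fatty acids. Genes close to Hnf4a included Parp4 (0.93) and Fosl2 (0.93). Gata4 ran with Lpin3 (0.95), with Hnf4g (0.94) and with Cs (0.94), the citrate synthase gene. Cdx1 ran with Chchd10 and Samm50 (0.94 each), whose products are mitochondrial, and H2aj (0.93). Cdx2 gave lower values, 0.87 for Tspo and 0.86 for Pon2 and Tmem79. Gata6 ran with Rab43 (0.97), Thrap3 and Pcnt (0.96 each), Maf with Coro2a, Epha1 and Ap2a2 (0.93 each), and Prdm1 with Nabp1 (0.84), Ifnlr1 (0.82) and Lyn (0.81).

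Among relatives of the 8, 5 genes of the same families were measured well enough to test. At 24 h, 2 were higher with dFz7-21 than in DMSO and 1 was lower. The small MAF genes Mafk (0.25 ± 0.05, adjusted p 0.000131) and Maff (0.34 ± 0.10, adjusted p 0.011) rose, while Mafg was at 0.11 ± 0.05 (adjusted p 0.118). Against Fz7-21S at 24 h, 1 of the 5 was higher (Mafk, 0.29, adjusted p 2.94e-05) and 1 lower (Gata5, -0.32, adjusted p 5.83e-05), where 16.5% of all tested genes were called higher and 17.2% lower. Maff was not called there (0.15, adjusted p 0.267). Gata5, another GATA gene of gut epithelium, fell by 0.32 on the log2 scale (SE 0.05, adjusted p 4.74e-05), from a mean of 61.1 to 48.9 CPM (n = 4). The 3 GATA genes thus had values of 0.27, -0.10 and -0.32 for Gata4, Gata6 and Gata5. Of 13 cofactor and partner genes, 1 rose and 5 fell (median -0.12), beside 18.2% of all tested genes called higher and 17.7% lower. Zfpm1, which codes for FOG1, a GATA-binding cofactor, fell by 0.58 (SE 0.07, adjusted p 1.26e-06), and Prmt5, a methyltransferase that works with PRDM1, by 0.25 (SE 0.04, adjusted p 1.63e-05). Tle3, a Groucho co-repressor, fell by 0.62 (SE 0.08, adjusted p 9.58e-07) and the histone demethylase gene Kdm1a by 0.30 (SE 0.05, adjusted p 1.88e-05).

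Other transcription factors of the intestinal epithelium moved in both directions. Of 31 tested, 16 rose and 6 fell at 24 h (median 0.19), and 6 rose and 2 fell at 6 h (median 0.06). Of all tested genes, 18.2% were called higher and 17.7% lower at 24 h. At 6 h, 11.0% of all tested genes were called in either direction, 6.05% as higher. Whether the counts of this list differ from those shares was not tested. Foxa3 fell by 1.14 (SE 0.08, adjusted p 1.25e-10), from 52.9 ± 2.94 to 24.1 ± 2.67 CPM, and Foxa2, a forkhead factor of the same family used by secretory cells, fell by 1.16 (SE 0.11, adjusted p 1.29e-08). Nr1h4, which codes for the bile acid receptor FXR, rose by 1.12 (SE 0.09, adjusted p 3.41e-10), from 32.3 ± 4.18 to 70.4 ± 4.37 CPM. Creb3l3, a membrane-bound factor of lipid metabolism, rose by 0.88 (SE 0.10, adjusted p 1.19e-07). At 6 h, Foxa3 and Foxa2 were already lower, by -0.37 ± 0.08 (adjusted p 0.00231) and -0.65 ± 0.11 (adjusted p 0.000231). Without the 3 libraries with mesenchymal transcripts the counts were 13 higher and 5 lower at 24 h, and 3 and 2 at 6 h. Over all genes that setting called 2402 higher and 2479 lower at 24 h, and 365 and 333 at 6 h.

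Genes that HNF4 and CDX2 are known to act on were mostly higher with dFz7-21 at 24 h. Of 22 HNF4-linked genes of lipid handling and the brush border, 21 rose and 1 fell, with a median of 0.67, beside -0.01 over all genes. Of all tested genes, 18.2% were called higher and 17.7% lower. Dgat1, the last enzyme of triglyceride synthesis, rose by 0.96 (SE 0.06, adjusted p 4.21e-12), Hadha, a subunit of the mitochondrial trifunctional protein, by 0.45 (SE 0.04, adjusted p 4.0e-09), the cholesterol transporter gene Npc1l1 by 0.85 (SE 0.08, adjusted p 9.13e-09) and Cpt1a, which codes for the enzyme of fatty acid entry into mitochondria, by 0.75 (SE 0.08, adjusted p 3.3e-08). The exception was Ttr, the transthyretin gene, which fell by 0.73 (SE 0.12, adjusted p 2.18e-05) and is named after its value was seen.

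All 17 CDX2-linked genes tested rose at 24 h (median 0.52), beside 18.2% of all tested genes called higher. Alpi, the intestinal alkaline phosphatase gene, rose by 1.29 (SE 0.10, adjusted p 7.76e-10), from 53.6 ± 10.4 to 132 ± 4.54 CPM. Muc2, the main gel-forming mucin of goblet cells, rose by 1.17 (SE 0.10, adjusted p 3.53e-09), Krt20 by 0.85 (SE 0.08, adjusted p 9.73e-09) and Vil1, the villin gene, by 0.46 (SE 0.05, adjusted p 4.64e-07). Against Fz7-21S at 24 h the counts were 15 higher and 1 lower of 22 HNF4-linked genes (median 0.38), and 15 higher and 0 lower of 17 CDX2-linked genes (median 0.51). In that comparison 16.5% of all tested genes were called higher and 17.2% lower. Without the 3 libraries with mesenchymal transcripts and Fz7-21S replicate 4, 18 and 17 were higher and 1 and 0 lower (medians 0.48 and 0.53).

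At 6 h, when Hnf4a and Cdx2 themselves were higher, 4 of the 22 HNF4-linked genes and 6 of the 17 CDX2-linked genes were higher than in DMSO, none was lower, and the medians were 0.08 and 0.05. Without the 3 libraries with mesenchymal transcripts, which include 2 of the 4 DMSO libraries of that time, the counts were 2 and 1 and the medians -0.02 for both lists. That setting called 365 genes higher and 333 lower among all those tested at 6 h. The test of the change between the times called 16 of the 22 HNF4-linked genes and 12 of the 17 CDX2-linked genes as larger at 24 h, and 1 and 0 as smaller. It called 7.37% of all tested genes higher and 5.78% lower.

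**Figure D4:**
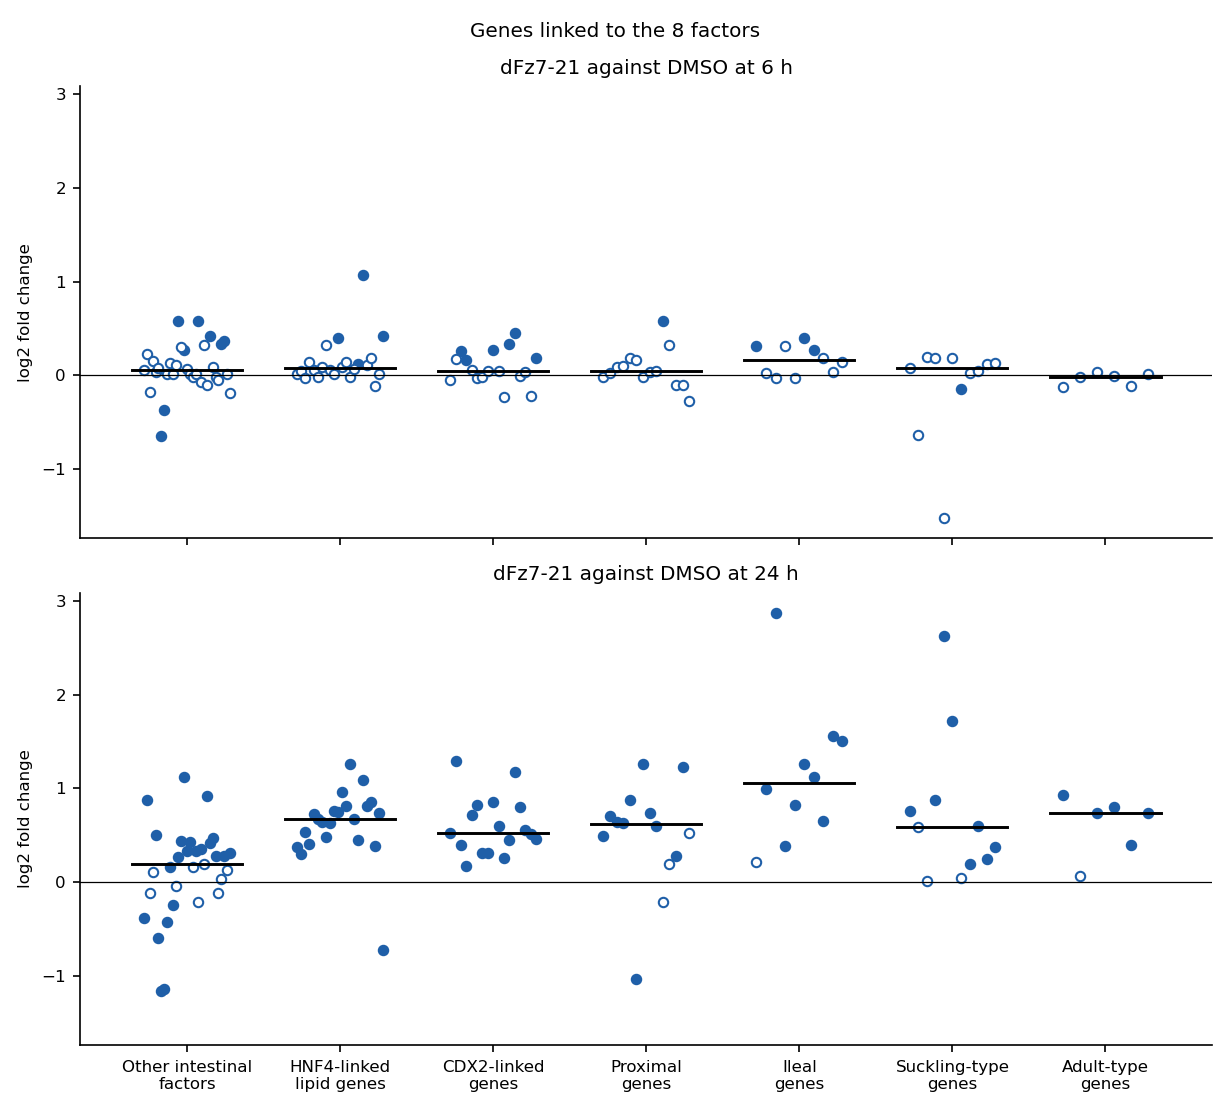
Log2 fold change of dFz7-21 against DMSO (vertical axis) for the genes of 7 lists linked to the 8 factors, at 6 h above and at 24 h below. Each circle is a gene, filled where called at an adjusted p below 0.05, and the bar is the median of the list; at 24 h the medians of the 6 lists other than that of factors lie between 0.52 and 1.05, at 6 h all 7 lie between -0.02 and 0.17.

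GATA4 is known to hold proximal genes on and ileal genes off along the small intestine. Both kinds were higher with dFz7-21 at 24 h, 10 of 14 proximal genes (1 lower, median 0.62) and 9 of 10 ileal genes (none lower, median 1.05). Over all tested genes, 18.2% were called higher and 17.7% lower. The proximal genes Ckmt1, a mitochondrial creatine kinase, and Slc2a2, the glucose transporter GLUT2, rose by 0.63 (SE 0.07, adjusted p 2.79e-07) and 1.23 (SE 0.17, adjusted p 2.46e-06). Cybrd1, the duodenal ferric reductase gene, fell by 1.04 (SE 0.15, adjusted p 4.01e-06), from 3.29 ± 0.339 to 1.59 ± 0.158 CPM. Fabp6, which carries bile acids inside ileal cells, rose by 2.87 (SE 0.20, adjusted p 1.18e-10), from 16.5 ± 2.81 to 121 ± 17.9 CPM, Slc51a, a bile acid exporter subunit, by 1.56 (SE 0.11, adjusted p 1.25e-10) and Muc3 by 1.26 (SE 0.11, adjusted p 2.48e-09). Muc3 was also the only gene of these lists called for Fz7-21S against DMSO at 24 h (0.52, adjusted p 0.0307). The ileal list as a whole had a median of 0.36 there, and the proximal list 0.07, beside 0.01 over all tested genes. Against Fz7-21S at 24 h, dFz7-21 was higher in 7 of 10 ileal genes (none lower, median 0.79) and 9 of 14 proximal genes (1 lower, median 0.52). In that comparison 16.5% of all tested genes were called higher and 17.2% lower. Lists overlap: Nr1h4, Fabp1 and Lct, for example, stand in more than 1.

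PRDM1 has been tied to the switch from suckling-type to adult-type epithelium, and MAF factors to protein uptake in the neonatal gut. Of 11 suckling-type genes, 8 rose at 24 h and none fell (median 0.59), or 7 without the 3 libraries with mesenchymal transcripts (median 0.39). Over all tested genes, 18.2% were called higher at 24 h and 17.7% lower. Fcgrt, the neonatal Fc receptor, rose by 1.72 (SE 0.16, adjusted p 7.21e-09), from 4.45 ± 0.328 to 14.7 ± 2.09 CPM. Amn and Cubn, which code for the cubam receptor of protein uptake, rose by 0.76 (SE 0.10, adjusted p 2.24e-06) and 0.88 (SE 0.18, adjusted p 0.000478), and the lysosomal sialidase gene Neu1 by 0.37 (SE 0.07, adjusted p 9.56e-05). Of 6 adult-type genes, 5 rose and none fell (median 0.74): Arg2 by 0.93 (SE 0.09, adjusted p 1.17e-08), the ketohexokinase gene Khk by 0.74 (SE 0.12, adjusted p 3.76e-05), the trehalase gene Treh by 0.74 (SE 0.13, adjusted p 9.55e-05) and Sis, sucrase-isomaltase, by 0.80 (SE 0.15, adjusted p 0.000149). At 6 h, none of either list was higher, 1 suckling-type gene was lower (Glb1, -0.14 ± 0.05, adjusted p 0.0489, named after its value was seen), and the medians were 0.08 and -0.02. Against Fz7-21S at 24 h, 7 of the 11 suckling-type genes and 5 of the 6 adult-type genes were higher and none lower (medians 0.39 and 0.51). In that comparison 16.5% of all tested genes were called higher and 17.2% lower. Without the 3 libraries with mesenchymal transcripts, 6 suckling-type genes were higher and 1 lower (median 0.39). When Fz7-21S replicate 4 was also left out, 7 were higher and 0 lower (median 0.36). These lists were drawn up with earlier results of these data known, so their counts are descriptions and not independent evidence of a direction.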

How the data were processed

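Polyadenylated RNA of 24 organoid samples was sequenced, and groups, times and replicate numbers were taken from the labels' titles. Per the file headers, each count deposited by the authors is of reads aligned uniquely to a gene model, and each deposited RPKM carries a size factor for its sample. GSNAP and GRCm38 come from the submitters' processing notes; for the aligner's version, annotation, strand and filters, the sources used here give nothing. Symbols were matched by Entrez identifier to RefSeq's gene table for GRCm38.p6, which named 31049 of 36528 identifiers.

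Counts were tested with edgeR 4.0.16 in R 4.3.3 (limma 3.58.1): filterByExpr on the 6 groups, TMM factors, 1 robust quasi-likelihood fit of all 24 libraries with a coefficient per group, and Benjamini-Hochberg adjustment over 15429 genes. SE is the size of the log2 fold change divided by the root of F. RPKM entered no test and served to compare genes per kilobase. The steps were tested on simulated data. Alternatives were RLE factors, no filter beyond 1 read, the replicate number as a block, DESeq2 1.42.0, a fit of only the groups compared, and leaving out each library.

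The 8 genes and the 14 other lists were chosen with earlier results of these data known. Named are all 8, the 4 genes of each linked list with the smallest p for dFz7-21 against DMSO at 24 h, for each of the 8 the 3 genes of highest Pearson's r over the 24 libraries (mean log2 CPM of at least 3), and genes that overlap a member; others are said to be named after their values were seen. Promoter sequences are from RefSeq (GRCm38.p6), whose promoter table held Cdx2, Hnf4a and Prdm1 of the members searched. It had no entry for Hnf4g, Gata4 and Maf, and Cdx1 and Gata6, on chromosome 18, were left out of the search. Depth was 20.4 to 33.1 M counts (M, 1e6), and intervals cover the spread between libraries. Some genes that the naming rule picked are not reported here.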

Additional observations from a re-analysis of the deposited data

Results flagged for a closer look

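In 5 of 48 sets of 4 replicates, 1 library lay far from the other 3 by Dixon's criterion, which chance alone meets in about 1 set in 20. Hnf4a was at 1069 CPM in Fz7-21S at 24 h replicate 4, against 1429 to 1445 CPM in its other replicates, and Gata6 was at 90.4 CPM in the same library, against 116 to 117 CPM. Hnf4g was at 159.8 CPM in dFz7-21 at 6 h replicate 1, against 124 to 129.7 CPM. Gata4 was at 124.9 CPM in DMSO at 6 h replicate 3, against 119.0 to 119.5 CPM. Prdm1 was at 1.03 CPM in DMSO at 6 h replicate 1, against 1.52 to 1.58 CPM.

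The difference of dFz7-21 from DMSO changed between 6 h and 24 h for 2 genes in the test of the interaction itself, by 0.34 on the log2 scale for Cdx1 (adjusted p 0.0461) and by 0.60 for Maf (adjusted p 0.00107).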

How the results depend on the processing

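The 20 calls among the 8 genes kept their direction in all 316 values from the other settings, and 295 of these were called; the exceptions stand beside the results, except Gata4 in DMSO over time without a filter (0.15, adjusted p 0.0601). No scaling moved the median of all genes by over 0.1. DESeq2 called 117 genes for Fz7-21S against DMSO at 24 h and 10 at 6 h, where edgeR called 40 and 1. Fits of only the groups compared called 3640 genes for dFz7-21 against DMSO at 6 h (1704 in the joint fit) and 6 of the 8 factors (3), 2305 (5202) against Fz7-21S at 24 h, 3159 (1086) against it at 6 h, 0 and 4 (24 h, 6 h) when Fz7-21S was set against DMSO, and 3418 (2029) for the interaction. Such a fit also called Cdx1 lower against Fz7-21S at 6 h (-0.13, adjusted p 0.0072) and Cdx2 higher over time in DMSO (0.10, adjusted p 0.0459). 2 settings were chosen after seeing the data. Without the 3 libraries with mesenchymal transcripts, 698 genes were called for dFz7-21 against DMSO at 6 h, 0 when Fz7-21S was set against DMSO there, and 1 of the 8 for the interaction. Without those and Fz7-21S at 24 h replicate 4, 2622 were called against Fz7-21S at 6 h, 0 when Fz7-21S was set against DMSO there and 3679 for the interaction, where Hnf4g was called (0.60, adjusted p 0.00384), as was Cdx1 against Fz7-21S at 6 h (-0.13, adjusted p 0.0228). The cause of these moves was not tested.

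Leaving out 1 library gave 22 to 1390 genes and 0 to 1 of the 8 for Fz7-21S against DMSO at 24 h, the most without Fz7-21S replicate 1 and the fewest without DMSO replicate 2. It gave 0 to 1 genes at 6 h (0 without DMSO replicate 2 or 4), 638 to 896 genes and 1 to 2 of the 8 for dFz7-21 against Fz7-21S at 6 h (670, 638 and 666 genes without dFz7-21 replicates 1 and 3 and Fz7-21S replicate 2), and 1 to 3 of the 8 for the interaction. Without DMSO at 24 h replicate 2, Prdm1 was called lower over time in DMSO (-0.75, adjusted p 0.025).

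Signs turned only for values that were not called. Maf for dFz7-21 against Fz7-21S at 6 h went from 0.00 just below 0 to 0.00 just above it with RLE factors, the block, without the 3 libraries and without dFz7-21 replicate 1, to 0.01 in DESeq2, 0.03 without Fz7-21S replicate 2 and 0.04 without dFz7-21 replicate 2 (-0.05 to 0.04 over libraries left out). Gata6 for dFz7-21 against DMSO at 6 h was 0.02 or 0.01 without DMSO replicate 2 or 3, and Cdx1 over time in DMSO was 0.00 without DMSO at 6 h replicate 4 or at 24 h replicate 3. Without DMSO at 24 h replicate 2, Prdm1 was 0.14 for Fz7-21S against DMSO at 24 h (-0.49 to 0.14 over libraries left out) and 0.00 for the interaction (-0.63 to 0.00). Without Fz7-21S at 24 h replicate 4, Gata6 against Fz7-21S was -0.04 (-0.03 without the 3 libraries too, -0.04 to 0.07 over libraries left out), and Cdx2 and Hnf4g for Fz7-21S against DMSO were -0.01 and 0.05 (also without the 3; Hnf4g -0.21 to 0.05 over libraries left out).

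Same-numbered libraries of different groups showed at most a weak shared deviation (r -0.10 to 0.12 over 28 such pairs of libraries from 7 comparisons, own number best in 11). This shows no strong pairing by number, but it cannot exclude that the numbers pair the samples. With the replicate block, 5468 genes (5537 without it) were called for dFz7-21 against DMSO at 24 h and 1720 (1704) at 6 h, and the counts of the 8 factors, 6 and 3, were the same in number. Depth limits Prdm1 (14 to 70 counts) most. Replicates differed by more than counting noise in every pair (chi-square per degree of freedom 2.77 to 88.9).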
